A study of Mus musculus with 39 samples.

Results

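The genes described here write, maintain, protect or remove DNA methylation. They are 10 named members, chosen by symbol with earlier results of these data known: the maintenance methyltransferase Dnmt1 and its cofactor Uhrf1, the de novo methyltransferases Dnmt3a and Dnmt3b with their partner Dnmt3l, the dioxygenases Tet1, Tet2 and Tet3, the glycosylase Tdg and the imprint factor Zfp57. Probes were assigned through the transcript accession of each spot and the RefSeq mouse annotation, which named 16535 genes on the array. Of the 10 members, 8 had a probe, with 13 probes in all, and all 13 passed the filter on low intensity. Tet1 and Tet3 had no matched probe and were not analysed here. Dnmt1, Dnmt3b, Dnmt3l and Zfp57 had 1 probe, Tdg, Tet2 and Uhrf1 had 2, and Dnmt3a had 3. A gene was counted by its brightest probe, called probe 1, and the other probes are given beside it.

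RNA came from 39 samples of the (B6xDBA/2)F1 mouse strain in 7 groups, with 1 array per sample. They were 7 arrays of unfertilised metaphase II oocytes (OC), 6 of 2-cell embryos made by in vitro fertilisation (IVF), 8 of 2-cell embryos cloned by nuclear transfer from cumulus cells without drug (TSA(-)), 6 of such clones given 5 nM trichostatin A, an inhibitor of histone deacetylases, for 8 h from activation (TSA(+)), 4 of clones injected at the pronuclear stage with Spi-C mRNA at 1.0 mg/ml, 4 at 0.1 mg/ml, and 4 of the donor cumulus cells (Cumulus). Each array held the RNA of 10 pooled oocytes or embryos or of 500 cumulus cells, so no value belongs to a single embryo, and the embryos had been cultured for 24 h. Both Spi-C concentrations together are called Spi-C NT. The design calls the samples biological replicates, without saying whether they came from separate collections, so p-values measure the spread between these samples. In such bulk RNA, fewer cells of one kind cannot be told apart from less RNA per cell.

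In mammals, DNA methylation is copied after replication by DNMT1, which UHRF1 brings to half-methylated sites, and is laid down anew by DNMT3A and DNMT3B, with DNMT3L as a catalytically inactive partner in germ cells. It is removed either by dilution over cell divisions or through oxidation of methylcytosine by TET enzymes, followed by base excision that TDG can begin. The oocyte stores the products of several of these genes, which act in the early embryo, and cloned embryos start from a somatic genome with somatic methylation.

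The start regions of the members are given first, because several members have more than 1 start and because methylation itself falls on CG pairs. RefSeq starts on the assembly GRCm38.p6 gave 19 regions of 300 bases (250 before and 50 after the start) for all 10 members. The following 6 are shown as examples: starts 1 and 3 of Dnmt1, start 2 of Uhrf1, starts 1 and 3 of Dnmt3a and the single start of Tdg. Each runs 5′ to 3′ on the strand of its gene, and capitals mark CG pairs.
Dnmt1 start 1, chr9:20959839-20960138, minus strand: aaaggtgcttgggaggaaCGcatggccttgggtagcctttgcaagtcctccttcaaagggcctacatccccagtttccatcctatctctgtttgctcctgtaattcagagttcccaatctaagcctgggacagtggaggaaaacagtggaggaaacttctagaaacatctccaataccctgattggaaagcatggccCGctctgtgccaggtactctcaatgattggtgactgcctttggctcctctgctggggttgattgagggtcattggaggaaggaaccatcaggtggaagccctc
Dnmt1 start 3, chr9:20952574-20952873, minus strand: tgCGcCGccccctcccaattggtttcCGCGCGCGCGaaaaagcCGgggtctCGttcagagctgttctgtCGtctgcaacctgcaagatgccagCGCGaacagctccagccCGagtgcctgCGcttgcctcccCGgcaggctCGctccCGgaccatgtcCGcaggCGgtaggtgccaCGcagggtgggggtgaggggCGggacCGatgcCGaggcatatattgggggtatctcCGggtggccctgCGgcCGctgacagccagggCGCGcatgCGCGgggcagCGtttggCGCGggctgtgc
Uhrf1 start 2, chr17:56304063-56304362, plus strand: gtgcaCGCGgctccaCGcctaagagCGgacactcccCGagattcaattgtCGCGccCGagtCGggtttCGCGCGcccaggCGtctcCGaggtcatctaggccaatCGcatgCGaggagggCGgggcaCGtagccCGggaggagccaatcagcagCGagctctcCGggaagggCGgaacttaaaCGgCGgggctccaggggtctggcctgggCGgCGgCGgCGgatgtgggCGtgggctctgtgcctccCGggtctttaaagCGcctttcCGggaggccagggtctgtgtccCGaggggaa
Dnmt3a start 1, chr12:3806730-3807029, plus strand: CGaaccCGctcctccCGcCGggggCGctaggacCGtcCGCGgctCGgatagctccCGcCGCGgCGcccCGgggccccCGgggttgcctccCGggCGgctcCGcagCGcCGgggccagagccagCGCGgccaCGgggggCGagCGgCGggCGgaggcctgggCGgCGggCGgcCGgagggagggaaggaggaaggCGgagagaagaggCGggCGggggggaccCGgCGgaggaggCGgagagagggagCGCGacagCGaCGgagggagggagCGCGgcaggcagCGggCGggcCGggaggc
Dnmt3a start 3, chr12:3891494-3891793, plus strand: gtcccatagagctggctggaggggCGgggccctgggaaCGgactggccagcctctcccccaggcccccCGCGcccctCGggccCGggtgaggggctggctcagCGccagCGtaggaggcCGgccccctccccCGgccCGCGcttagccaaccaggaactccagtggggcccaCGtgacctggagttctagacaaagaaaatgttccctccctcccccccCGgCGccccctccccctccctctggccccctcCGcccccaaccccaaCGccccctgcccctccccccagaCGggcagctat
Tdg start 1, chr10:82629588-82629887, plus strand: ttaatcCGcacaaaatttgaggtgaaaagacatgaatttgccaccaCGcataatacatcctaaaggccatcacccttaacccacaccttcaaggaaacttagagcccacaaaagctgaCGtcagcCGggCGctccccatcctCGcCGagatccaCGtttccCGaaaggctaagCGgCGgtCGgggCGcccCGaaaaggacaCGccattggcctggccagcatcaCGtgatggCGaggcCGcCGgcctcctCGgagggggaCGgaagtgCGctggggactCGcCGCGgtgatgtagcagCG

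Start 1 of Dnmt1 held 2 CG pairs and start 3 held 33, where the median over all 32851 regions of this length was 7. Start 2 of Uhrf1 also held 33, starts 1 and 3 of Dnmt3a held 46 and 18, and Tdg held 26. Tet2, not printed, had the most CG pairs of the 19 regions with 57, a number reached by 0.152% of all regions, and the 3 starts of Dnmt3l had the fewest on average, with 6, 4 and 3. Letter strings were searched on both strands, with overlaps allowed. TTTNNCGC, the core of the E2F motif, occurred in 5.17% of all regions and in 4 of the 19 member regions, among them start 3 of Dnmt1 with 3 matches, both starts of Uhrf1 with 1 each and start 1 of Zfp57. GGGCGG (GC box) was found in 35.7% of all regions and in 12 of 19, CCAAT in 37.4% and 7, TATAAA in 13.6% and 1, and CCGGAAGT, an ETS string, in 3.89% and 0. A match is a description of the letters only. The array does not measure which start was used.

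Levels are log2 processed intensities minus the 75th percentile of the same array, so that 0 is that percentile. The 75th percentile ran from 271 to 512 units in OC, 997 to 1364 in IVF, 2115 to 2666 in Spi-C NT and 792 to 1101 in Cumulus, and 48.7 to 77.6% of probes were well above background per array. The Cumulus arrays lay on 1 slide and the Spi-C NT arrays on 2 slides of their own, with another scanner and software version, so slide and group cannot be told apart in comparisons with either. The cumulus list was highest in Cumulus, the oocyte list in OC and the 2-cell list in IVF. Every cloned-embryo array lay below all IVF arrays in the 2-cell list. The summed linear level of 11 cumulus genes was 229 to 251 in Cumulus, 1.38 to 3.83 in OC, 4.66 to 9.10 in TSA(-), 5.09 to 8.91 in IVF, 8.52 to 11.6 in TSA(+) and 5.02 to 7.50 in Spi-C NT. For 9 oocyte genes it ran from 2551 to 4121 in OC, from 635 to 707 in IVF, from 461 to 626 in TSA(-) and TSA(+) together, 380 to 471 in Spi-C NT and 1.15 to 2.11 in Cumulus, where Zp2, Bmp15, Oosp1, Mos, Nlrp5 and Zar1 were above background on no array. For 7 genes of the 2-cell stage it ran from 253 to 352 in IVF, from 57.8 to 173 in TSA(-), with 88.1 to 171 in TSA(+), 48.1 to 86.8 in Spi-C NT, 28.2 to 43.2 in OC and 12.3 to 17.6 in Cumulus. Their part in the differences below was not tested.

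Calls use limma with a Benjamini-Hochberg adjusted p under 0.01 over 39517 probes. From OC to IVF, Dnmt1, Uhrf1, Dnmt3b and Zfp57 fell and Dnmt3a (probe 1) and Dnmt3l rose, the last turning to -0.16 after centring on the median, so 2 of 8 members were called higher against 23.3% of all probes and 4 of 8 lower against 42.7%. The median difference of the members was -1.54 and that of all probes -0.88. The latter depended on the scaling and was -1.55 when arrays were centred on their median, -0.29 after quantile normalization and -0.10 after normexp, and the share of higher among called probes was 35.4, 24.5, 43.5 and 43.3% in the same order. Ranges did not overlap between OC and IVF for 7 of 8 members. The same share over all probes was not computed, so this count shows nothing particular to the members.

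Against IVF, Tdg and Tet2 were higher in TSA(-) and Dnmt3l and Uhrf1 lower, 2 of 8 each way against 8.49% and 10.3% of all probes, with a median of 0.04 for the members and -0.05 for all probes. With slide as a block the only member called was Tdg, which was higher (1 of 8, where 4.47% of all probes were higher and 5.81% lower). With scan day as a block Tdg and Tet2 were higher (2 of 8, against 7.55% of all probes) and 0 of 8 lower (against 8.7%). In TSA(+) against the same IVF arrays, Tdg was higher (1 of 8 against 7.83%) and Dnmt3l, Uhrf1 and Zfp57 were lower (3 of 8 against 11.1%), with medians of 0.16 and -0.23. Here 2 of 8 members were called lower with slide as a block (8.92% of all probes) and 0 higher (6.37%). Without TSA(+) replicate 5, 2 of 8 were lower (9.38% of all probes) and 0 higher (6.95%), and without replicate 6 the same counts stood beside 9.67% and 6.9%. After centring on the median, 2 of 8 were higher (10.6% of all probes) and 0 lower (7.23%), the median of all probes was -0.02, and higher probes made up 59.4% of the calls in place of 41.3%; quantile normalization gave 50.8% and normexp 51.1%.

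No member was called between TSA(+) and TSA(-) by limma, where 0.043% of all probes were higher and 0.0936% lower. At an unadjusted p under 0.05 the only one was Tdg (1 of 8, a share below the 16.3% of all probes), and Tukey's test called 0 of 8, with 0.61% of all probes higher and 1.41% lower. The share of higher among the called probes was 31.5%, and 69.0% after centring on the median, 48.7% after quantile normalization and 52.7% after normexp. In Spi-C NT against TSA(-), Dnmt3l was higher (1 of 8 against 11.5% of all probes) and Dnmt3b and Tdg were lower (2 of 8 against 9.2%), with medians of -0.02 and 0.13. The share of higher calls was 55.5%, and 36.1% after centring on the median. Between the Spi-C concentrations 0 members were called by limma, 0 at an unadjusted p under 0.05 and 0 by Tukey's test. Of all probes 0.00506% were higher and 0% lower by limma, 4.11% had an unadjusted p under 0.05, and Tukey's test called 0.0633% higher and 0.0683% lower.

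All 8 members differed between Cumulus and OC, with Dnmt3a (probe 1) and Tdg higher (2 of 8 against 23.4%) and 6 of 8 lower (against 44.4%), and the median was -5.68 against -1.15 for all probes. The split of calls moved from 34.6% higher to 45.9% after normexp and 46.1% after quantile normalization. Against the same Cumulus arrays, TSA(-) embryos were higher in 7 of 8 members (30.5% of all probes), of which Dnmt1 turned to -0.19 after centring on the median, and lower in Tdg (1 of 8, 24.5%), with medians of 3.74 and 0.11, and higher probes were 55.5% of the calls, or 35.4% after centring on the median. Tet2 is counted here by probe 1, and its probe 2 was called the other way in both comparisons (2.35 and -2.20). Dnmt3a is also counted by probe 1, and its probe 3 was not called in TSA(-) against Cumulus (0.24). Comparisons that share the IVF, TSA(-), OC or Cumulus arrays are not independent of each other.

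**Figure D1:**
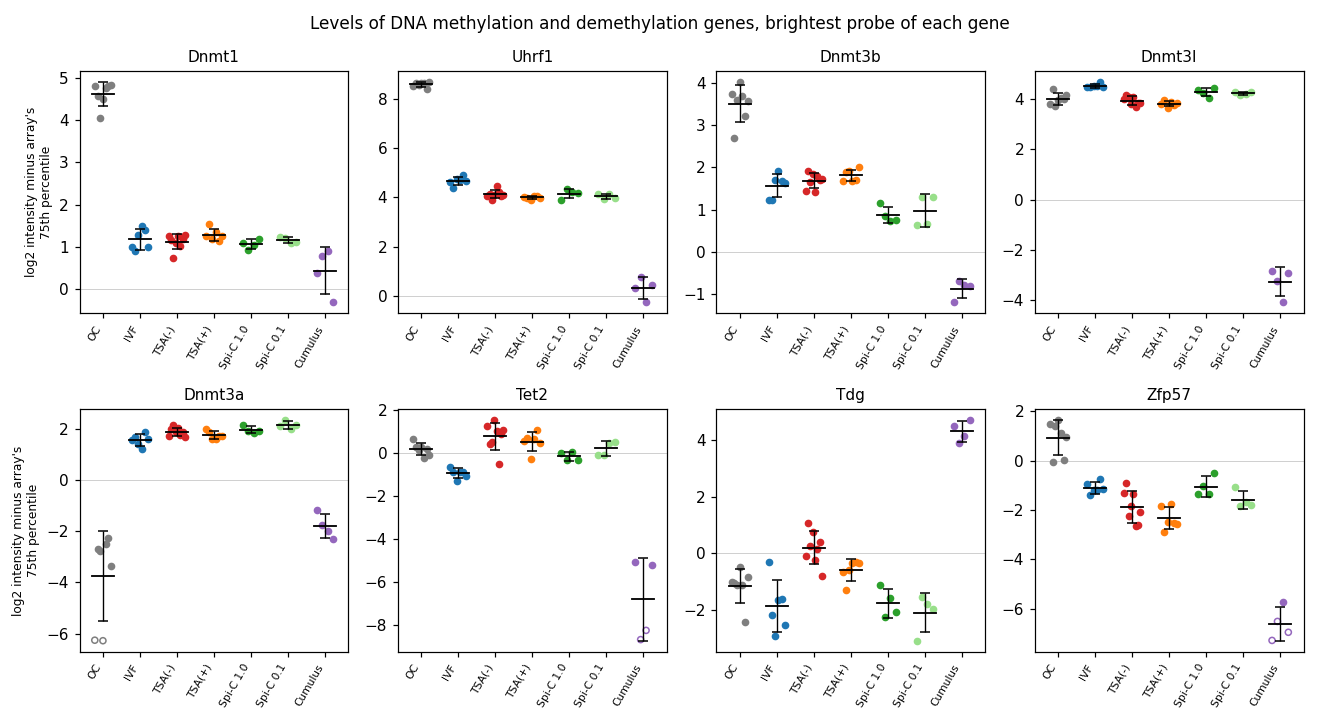
Levels of the 8 members with a probe, by group (x axis), as log2 processed intensity minus the 75th percentile of the array (y axis). Each point is 1 array, open where the probe was not well above background, and lines give mean and SD. Dnmt1 and Uhrf1 stand apart in OC, Dnmt3l, Tet2 (probe 1) and Zfp57 are lowest in Cumulus, and Tdg is highest there.

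Dnmt1, which copies methylation onto the new strand, had its highest levels in oocytes. In OC its lowest, median and highest levels were 4.04, 4.75 and 4.83, against 0.9, 1.15 and 1.5 in IVF. In TSA(-) they were 0.75, 1.18 and 1.28 and in TSA(+) 1.15, 1.26 and 1.54. The Spi-C arrays gave 1.09, 0.94, 1.06 and 1.2 at 1.0 mg/ml and 1.24, 1.21, 1.09 and 1.11 at 0.1 mg/ml, and Cumulus gave 0.39, 0.78, 0.91 and -0.31. All OC arrays lay above all others, and the 2-cell groups overlapped one another. The fall from 4.62 ± 0.29 (SD, n = 7) in OC to 1.18 ± 0.25 (n = 6) in IVF was 3.43 on the log2 scale (SE 0.17, 10.8-fold, adjusted p = 4.83e-17), a difference of -2.56 relative to the median of all probes. Within the 2 slides that held both groups it was -3.84 and -2.92.

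Cloned embryos showed no call for Dnmt1 against IVF, with -0.06 in TSA(-) (95% interval -0.39 to 0.28, adjusted p = 0.852) and 0.11 in TSA(+) (-0.25 to 0.47, 0.689). Spi-C NT differed from TSA(-) by -0.01 (-0.21 to 0.19, 0.951). In Cumulus the level was 0.44 ± 0.55 (n = 4), or 4.18 lower than in OC on the log2 scale (difference -4.18, SE 0.19, adjusted p = 3.40e-18). TSA(-) embryos were above their donor cells by 0.68 (SE 0.19, adjusted p = 0.002), but after centring on the median the difference was -0.19, and without Cumulus replicate 4 it was 0.43 with an adjusted p of 0.037, and with both groups compared alone the adjusted p was 0.016.

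Uhrf1, whose product recognises half-methylated DNA, had the same order, with OC first, the 2-cell groups next and Cumulus last. Its probe 1 had lowest, median and highest levels of 8.39, 8.64 and 8.67 in OC and 4.37, 4.69 and 4.91 in IVF. The same values were 3.91, 4.11 and 4.46 in TSA(-) and 3.90, 4.01 and 4.05 in TSA(+). Spi-C arrays gave 3.89, 4.35, 4.20 and 4.18 at 1.0 mg/ml and 4.12, 3.94, 4.12 and 3.97 at 0.1 mg/ml, while Cumulus gave 0.35, 0.78, -0.25 and 0.45. OC did not overlap any group, nor did Cumulus, and the IVF arrays lay above all TSA(+) and all Spi-C arrays. From OC to IVF the probe fell by 3.91 on the log2 scale (SE 0.13, 15.0-fold, adjusted p = 9.38e-21), and probe 2, on the same transcript, differed by -4.20 (SE 0.15, adjusted p = 2.19e-20).

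Uhrf1 was also lower in the clones than in IVF. TSA(-) differed by -0.53 (SE 0.13, 1.45-fold, adjusted p = 0.002) and TSA(+) by -0.67 (SE 0.14, 1.59-fold, adjusted p = 4.07e-04). Probe 2 gave -0.47 (adjusted p = 0.015) and -0.62 (adjusted p = 0.003), and without TSA(-) replicate 5 the former was -0.53 with an adjusted p of 0.006. The TSA(-) difference of probe 1 lost its call with slide as a block (-0.41, adjusted p = 0.131), with scan day as a block (-0.47, 0.015), after quantile normalization (-0.40, 0.024) and after normexp (-0.39, 0.011), although TSA(-) was lower on all 3 slides that held both groups (-0.47 to -0.09). The TSA(+) difference of probe 1 kept it with slide as a block (-0.70, adjusted p = 0.003), was -0.80 to -0.59 within 3 slides, and lost it after centring on the median (-0.45, adjusted p = 0.016). With probe 2 the TSA(+) call was lost with slide as a block (-0.65, adjusted p = 0.012) and after centring on the median (-0.41, 0.049).

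TSA(+) and TSA(-) differed in Uhrf1 by -0.14 (95% interval -0.40 to 0.13, adjusted p = 0.637), and Spi-C NT and TSA(-) by -0.04 (-0.22 to 0.14, 0.786). The donor cells had 0.33 ± 0.43, so that clones were 13.9-fold above them (log2 difference 3.80, SE 0.15, adjusted p = 1.06e-19).

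Dnmt3b, a de novo enzyme, was lower in IVF than in OC and lower in Spi-C NT than in TSA(-). Lowest, median and highest levels were 2.69, 3.60 and 4.03 in OC, 1.23, 1.65 and 1.91 in IVF, 1.42, 1.72 and 1.92 in TSA(-) and 1.68, 1.80 and 2.00 in TSA(+). The Spi-C arrays gave 1.15, 0.86, 0.73 and 0.76 at 1.0 mg/ml and 0.63, 1.31, 0.66 and 1.31 at 0.1 mg/ml, and Cumulus gave -1.2, -0.70, -0.78 and -0.81. All OC arrays lay above, and all Cumulus arrays below, every embryo array, and all 8 Spi-C arrays lay below all TSA(-) arrays. IVF differed from OC by -1.95 (SE 0.17, 3.85-fold, adjusted p = 1.87e-11), or -1.07 relative to all probes. TSA(-) and TSA(+) differed from IVF by 0.13 (95% interval -0.21 to 0.46) and 0.25 (-0.11 to 0.61), with adjusted p of 0.634 and 0.312. Spi-C NT was below TSA(-) by 0.76 on the log2 scale (difference -0.76, SE 0.12, 1.70-fold, adjusted p = 3.59e-05), across arrays of different slides.

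Dnmt3l, the cofactor of de novo methylation in the growing oocyte, was well above background on all 39 arrays and was lowest in donor cells. Its lowest, median and highest levels were 3.71, 4.01 and 4.41 in OC, 4.47, 4.50 and 4.68 in IVF, 3.67, 3.92 and 4.17 in TSA(-) and 3.65, 3.81 and 3.97 in TSA(+). The Spi-C arrays gave 4.34, 4.25, 4.04 and 4.44 at 1.0 mg/ml and 4.27, 4.14, 4.18 and 4.29 at 0.1 mg/ml, and Cumulus gave -2.82, -3.25, -4.09 and -2.90. The 6 IVF arrays lay above all OC arrays and above all clones, and Cumulus lay far below every other group.

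The rise of Dnmt3l from OC to IVF was 0.52 (SE 0.16, 1.43-fold, adjusted p = 0.004), and it turned to -0.16 after centring on the median. Its call was lost with slide as a block (0.43, adjusted p = 0.084), with scan day as a block (0.46, 0.017), without OC replicate 3 (0.47, 0.011) and without IVF replicate 5 (0.49, 0.011). In TSA(-) it was lower than in IVF by 0.60 on the log2 scale (difference -0.60, SE 0.15, 1.51-fold, adjusted p = 0.003), with all 3 shared slides lower (-0.85 to -0.31), but not called with slide as a block (-0.52, 0.097), with scan day as a block (-0.57, 0.012) or without IVF replicate 5 (-0.56, 0.010). TSA(+) differed from IVF by -0.71 (SE 0.16, 1.64-fold, adjusted p = 0.001), with -0.79 and an adjusted p of 0.004 with slide as a block, -0.73 to -0.69 within 3 slides, and -0.50 with an adjusted p of 0.020 after centring on the median.

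Spi-C NT embryos lay between TSA(-) and IVF in their mean, with Dnmt3l above TSA(-) by 0.31 (SE 0.08, 1.24-fold, adjusted p = 0.005). That call was lost without any one of TSA(-) replicates 4, 6, 7 and 8, Spi-C 1.0 replicates 1 and 4 and Spi-C 0.1 replicates 1 and 4 (0.27 to 0.30, adjusted p 0.011 to 0.015), with the groups compared alone (0.31, 0.027) and after centring on the median (0.14, 0.278). In Cumulus the level was -3.27 ± 0.58, and TSA(-) was 147-fold above it (log2 difference 7.20, SE 0.17, adjusted p = 8.68e-25).

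The 3 probes of Dnmt3a, the other de novo enzyme, disagreed in oocytes. Probes 1 and 3 were designed to the same RefSeq transcript and probe 2 to another. In OC, probe 1 read -6.28 to -2.27 with a median of -2.76 and was well above background on 5 of 7 arrays, probe 2 read -1.64 to 5.91 with a median of 2.31, and probe 3 read 2.27 to 3.29 with a median of 2.77. In IVF the lowest, median and highest levels were 1.22, 1.60 and 1.88 for probe 1, 0.85, 1.04 and 1.87 for probe 2, and -0.79, 0.10 and 0.63 for probe 3. OC lay wholly below IVF with probe 1, wholly above it with probe 3, and around it with probe 2. The differences of IVF from OC were 5.30 (SE 0.47, adjusted p = 3.57e-11), -0.73 (SE 0.64, 0.307) and -2.78 (SE 0.25, 4.42e-11) for probes 1, 2 and 3, and 0.60 for their mean (adjusted p = 0.095). Within the 2 shared slides these were 3.73 and 4.20, -2.42 and -1.73, and -2.17 and -2.03. Whether Dnmt3a RNA rose or fell at the 2-cell stage was thus not settled by these probes.

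**Figure D2:**
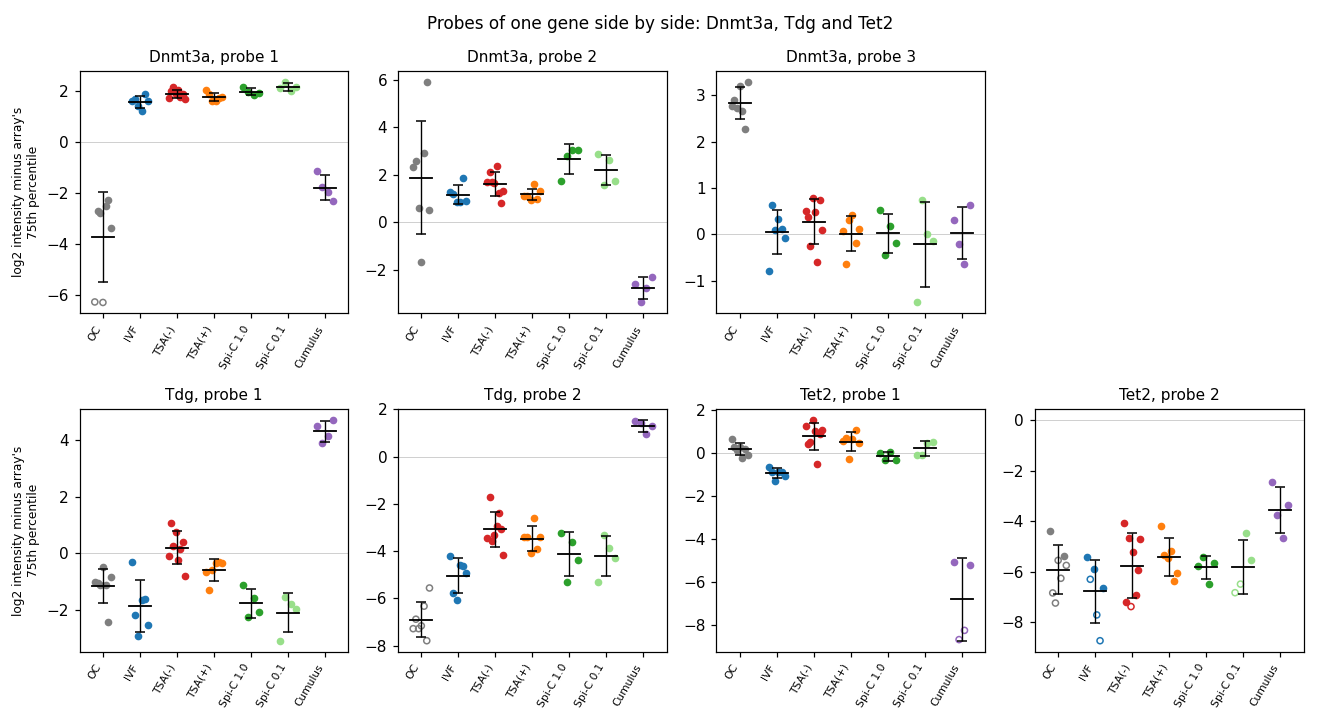
Levels of each probe of Dnmt3a, Tdg and Tet2 by group (x axis), in log2 processed intensity minus the 75th percentile of the array (y axis). Points are arrays, open where not well above background, with mean and SD. The oocyte arrays lie below IVF with probe 1 of Dnmt3a and above it with probe 3, and the donor cells are lowest with probe 1 of Tet2 and highest with probe 2.

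Among 2-cell groups Dnmt3a varied less. Probe 1 had lowest, median and highest levels of 1.68, 1.90 and 2.15 in TSA(-) and 1.61, 1.74 and 2.02 in TSA(+), and read 2.17, 1.95, 1.85 and 1.92 in Spi-C 1.0 and 2.12, 2.36, 1.99 and 2.15 in Spi-C 0.1. These groups overlapped one another. All 6 IVF arrays, at most 1.88, lay below the Spi-C 0.1 arrays, at least 1.99, which was not tested. No tested comparison between 2-cell groups was called with probe 1. The differences from IVF were 0.33 (95% interval -0.61 to 1.27) for TSA(-) and 0.20 (-0.81 to 1.2) for TSA(+). Both intervals come from the fit that also held OC, where the SD was 1.77, against 0.23 in IVF and 0.16 in TSA(-) and TSA(+). Spi-C NT against TSA(-), from the fit of 2-cell groups, gave 0.17 (-0.04 to 0.37). Probe 2 was higher in Spi-C NT than in TSA(-) by 0.83 (SE 0.23, adjusted p = 0.008), and that call was lost without any one of TSA(-) replicates 1, 3, 4, 6, 7 and 8, Spi-C 1.0 replicates 2, 3 and 4 and Spi-C 0.1 replicates 1 and 3 (0.71 to 0.84, adjusted p 0.012 to 0.025). It was also lost with slide as a random block (0.83, adjusted p = 0.014), with the groups compared alone (0.83, 0.032) and after centring on the median (0.65, 0.024). In Cumulus probe 1 gave -1.15, -1.75, -1.97 and -2.30, below every embryo array and overlapping OC. TSA(-) was above Cumulus by 3.69 with probe 1 (SE 0.52, adjusted p = 3.32e-07) and by 4.36 with probe 2 (SE 0.71, 3.17e-06), while probe 3 gave 0.24 (95% interval -0.33 to 0.80, adjusted p = 0.473).

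Against OC, Cumulus was higher by 1.94 with probe 1 of Dnmt3a (SE 0.53, adjusted p = 0.002), lower with probe 2 (-4.64, 1.39e-06) and probe 3 (-2.80, 3.75e-10), and lower in the mean of the probes (-1.83, 5.27e-05). The call of probe 1 was lost without Cumulus replicate 1 (1.73, adjusted p = 0.011) and with both groups compared alone (0.044).

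Tet2, the one measured oxidising enzyme, was higher in TSA(-) clones than in fertilised embryos. Its probe 1 had lowest, median and highest levels of -0.21, 0.17 and 0.66 in OC, -1.31, -0.88 and -0.63 in IVF, -0.53, 0.96 and 1.54 in TSA(-) and -0.28, 0.61 and 1.08 in TSA(+). The Spi-C arrays gave 0.00, -0.31, 0.06 and -0.33 at 1.0 mg/ml and -0.07, -0.07, 0.49 and 0.51 at 0.1 mg/ml. In Cumulus it read -5.08, -8.69, -8.26 and -5.20 and was well above background on 2 of 4 arrays. No clone array of any treatment fell as low as the highest IVF array, and 1 TSA(-) array, at -0.53, stood nearest to it.

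The difference of TSA(-) from IVF in Tet2 was 1.71 (SE 0.41, 3.28-fold, adjusted p = 0.002), higher on all 3 shared slides (0.33 to 1.95), and 1.41 with an adjusted p of 0.099 with slide as a block. TSA(+) against IVF gave 1.48 (SE 0.44, 2.79-fold) and missed the threshold with an adjusted p of 0.011. It also missed it with slide as a block (1.53, adjusted p = 0.035) and with scan day as a block (1.53, 0.019). Without TSA(+) replicate 3 it was 1.64 with 0.008, and with both groups compared alone it had 2.21e-04. After normexp it was 1.5 with 1.78e-05, and after centring on the median 1.69 with 0.003. All 3 shared slides were higher (1.18 to 2.00). Between TSA(+) and TSA(-) the difference was -0.24 (95% interval -1.08 to 0.61, adjusted p = 0.820). From OC to IVF it was -1.12 (SE 0.42, adjusted p = 0.019), or -0.24 relative to the median of all probes. The adjusted p was 7.16e-05 when both groups were compared alone. With slide as a block the difference was -0.91 (adjusted p = 0.185). Spi-C NT against TSA(-) gave -0.74 (SE 0.22, adjusted p = 0.013), and without TSA(-) replicate 6, the array at the low end, -0.93 with 4.31e-04.

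Probe 2 of Tet2, on the same transcript, was dim, with 28 of 39 arrays above background, and none of its comparisons between 2-cell groups was called. It differed from probe 1 in the donor cells. Cumulus against OC was -6.98 with probe 1 (SE 0.48, adjusted p = 5.50e-14) and 2.35 with probe 2 (SE 0.65, adjusted p = 0.002), the latter lost without Cumulus replicate 1 (1.99, 0.014). With TSA(-) against Cumulus the 2 probes gave 7.58 (adjusted p = 8.70e-15) and -2.20 (adjusted p = 0.003), and the second lost its call without Cumulus replicate 1 (-1.83, 0.025) or replicate 4 (-2.13, 0.011). The sizes with probe 1 are uncertain, since it was well above background on only 2 of 4 Cumulus arrays. Probe 2 was well above it on only 2 of 7 OC arrays. Whether Tet2 RNA was higher or lower in Cumulus was thus not settled by these probes.

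Tdg, which excises oxidised methylcytosine and mismatched thymine, was the member that differed most between TSA(-) and IVF by its brightest probe. Its probe 1 had lowest, median and highest levels of -2.94, -1.94 and -0.30 in IVF, -0.80, 0.21 and 1.07 in TSA(-), -1.31, -0.48 and -0.30 in TSA(+) and -2.45, -1.05 and -0.49 in OC. The Spi-C arrays gave -1.12, -2.25, -1.59 and -2.10 at 1.0 mg/ml and -3.10, -1.54, -1.79 and -1.98 at 0.1 mg/ml, and Cumulus gave 4.52, 3.89, 4.16 and 4.72. TSA(-) overlapped IVF only through the highest IVF array, all 8 Spi-C arrays lay below all TSA(-) arrays, and all 4 Cumulus arrays lay above every other array. Probe 2, on another Tdg transcript, had medians of 1.36 in Cumulus, -4.78 in IVF, -3.20 in TSA(-) and -3.42 in TSA(+), and was not well above background on any of 7 OC arrays.

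TSA(-) was above IVF in Tdg by 2.07 (SE 0.33, 4.19-fold, adjusted p = 1.83e-05) with probe 1 and by 1.96 (SE 0.35, 3.90-fold, adjusted p = 8.21e-05) with probe 2. Slide as a block gave 1.80 (adjusted p = 0.003) and 2.06 (0.002), and the values within 3 slides were 1.38 to 1.80 and 2.19 to 2.50. TSA(+) was above IVF by 1.28 (SE 0.35, 2.43-fold, adjusted p = 0.007) with probe 1 and 1.57 (SE 0.38, 2.97-fold, adjusted p = 0.002) with probe 2, and with slide as a block by 1.18 (0.017) and 1.43 (0.011). On the 3 shared slides probe 1 gave -0.36 to 2.05, with 1 of 3 lower. Its call in TSA(+) was lost without any one of IVF replicates 2, 3 and 6 and TSA(+) replicates 1, 3, 4, 5 and 6 (1.07 to 1.30, adjusted p 0.010 to 0.024), with scan day as a block (1.08, 0.018) and with both groups compared alone (0.022).

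Directly compared, TSA(+) was below TSA(-) in Tdg by 0.79 on the log2 scale with probe 1 (difference -0.79, SE 0.33, unadjusted p = 0.024, adjusted p = 0.226) and probe 2 gave -0.39 (95% interval -1.11 to 0.33, adjusted p = 0.618). Neither was called. Spi-C NT was below TSA(-) by 2.12 on the log2 scale with probe 1 (difference -2.12, SE 0.32, 4.36-fold, adjusted p = 1.05e-05), and probe 2 gave -1.09 (SE 0.36, adjusted p = 0.023), which became -1.31 with 0.007 after quantile normalization.

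In the donor cells Tdg was at 4.33 ± 0.37, and TSA(-) lay below it by 4.14 on the log2 scale (difference -4.14, SE 0.38, 17.6-fold, adjusted p = 5.48e-11) with probe 1 and by 4.37 with probe 2 (difference -4.37, adjusted p = 6.38e-11). The summed level of cumulus markers, 229 to 251 in Cumulus, was 4.66 to 9.10 in TSA(-), 5.09 to 8.91 in IVF and 8.52 to 11.6 in TSA(+), and its part in the Tdg values was not tested. From OC to IVF the measured differences of the probes had opposite signs, and probe 1 was not called. Probe 1 gave -0.72 (SE 0.34, adjusted p = 0.057), or 0.15 relative to the median of all probes. It was -1.04 with 0.004 without IVF replicate 1, and -0.50 with 0.281 with slide as a block. Within the shared slides it ran from -1.09 to 0.13. Probe 2 gave 1.86 (SE 0.36, interval 1.12 to 2.6, adjusted p = 4.26e-05), a measured 3.63-fold from a mean of -6.90 to -5.04. That call was lost after normexp (0.52, adjusted p = 0.013). The size of this rise is uncertain, since probe 2 was well above background on no OC array. For the same reason the measured 293-fold difference of Cumulus above OC with probe 2 (adjusted p = 2.81e-17) is uncertain in size.

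**Figure D3:**
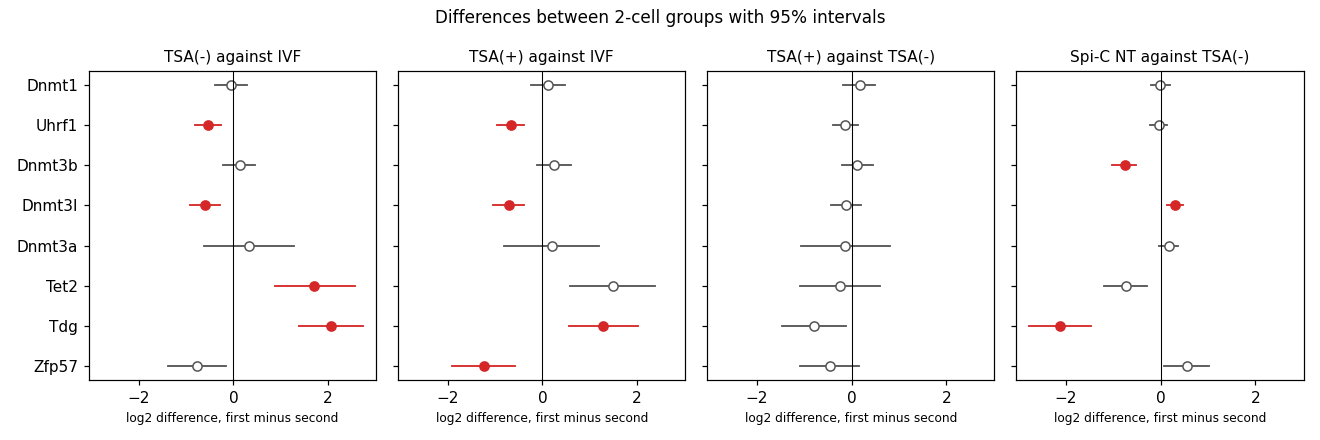
Log2 differences of the 8 members (x axis, first group minus second, brightest probe) with 95% intervals in 4 comparisons between 2-cell groups. Filled red points had an adjusted p under 0.01. Tdg is at 2.07 in TSA(-) against IVF, 1.28 in TSA(+) against IVF and -2.12 in Spi-C NT against TSA(-), and no member is filled in TSA(+) against TSA(-).

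Zfp57 encodes a zinc finger protein that protects methylation at imprinted regions. Its lowest, median and highest levels were -0.07, 1.11 and 1.64 in OC, -1.41, -1.17 and -0.76 in IVF, -2.66, -1.97 and -0.90 in TSA(-) and -2.88, -2.51 and -1.75 in TSA(+). The Spi-C arrays gave -1.37, -1.02, -1.37 and -0.49 at 1.0 mg/ml and -1.08, -1.85, -1.67 and -1.79 at 0.1 mg/ml, while Cumulus gave -7.29, -6.52, -5.72 and -6.96 with 1 of 4 arrays above background. All OC arrays lay above all IVF arrays, all TSA(+) arrays lay below them, and TSA(-) overlapped both 2-cell groups.

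From OC to IVF, Zfp57 differed by -2.04 (SE 0.31, 4.12-fold, adjusted p = 1.20e-06), or -1.17 relative to all probes. TSA(+) was below IVF (difference -1.23, SE 0.32, 2.35-fold, adjusted p = 0.005), with -1.72 to -0.90 within 3 slides. That call was lost with slide as a block (-1.19, adjusted p = 0.018), after centring on the median (-1.02, 0.015), and without IVF replicate 1 or 5 or TSA(+) replicate 2, 5 or 6 (-1.2 to -1.13, adjusted p 0.010 to 0.014). TSA(-) against IVF gave -0.77 (95% interval -1.39 to -0.15, adjusted p = 0.059) and TSA(+) against TSA(-) gave -0.46 (-1.09 to 0.16, 0.467). Spi-C NT differed from TSA(-) by 0.55 (0.08 to 1.03, 0.072). TSA(-) was above Cumulus (measured difference 4.74, SE 0.34, adjusted p = 4.11e-13), but its size is uncertain, since only 1 of 4 Cumulus arrays was above background.

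The 2 concentrations of Spi-C mRNA gave no called difference. Among the 8 brightest probes the differences of 1.0 from 0.1 mg/ml ran from -0.36 for Tet2 (95% interval -1.0 to 0.29) to 0.53 for Zfp57 (-0.14 to 1.21), and each adjusted p was 1.000. Tdg differed by 0.34 (-0.58 to 1.26), Dnmt3a by -0.19 (-0.48 to 0.10) and Uhrf1 by 0.12 (-0.14 to 0.38). With 4 arrays each, the intervals of Dnmt1, Dnmt3b and Dnmt3l spanned -0.38 to 0.20, -0.46 to 0.26 and -0.19 to 0.29.

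Genes that work with these enzymes were followed through 5 lists of 42 genes, of which 38 had a probe: methyl-CpG readers, partners of maintenance, imprint and maternal methylation factors, base excision repair with deamination, and supply of methyl donor and 2-oxoglutarate. From OC to IVF, 12 of 38 were higher and 19 lower, against 23.3% and 42.7% of all probes, with a median of -0.84 beside -0.88 for all probes. The growth arrest genes Gadd45g (5.25, SE 0.21, adjusted p = 1.15e-18) and Gadd45b (4.87, SE 0.22, 8.83e-18) rose, and the uracil glycosylase gene Smug1 (-4.92, SE 0.16, 2.07e-21), the repair scaffold Xrcc1 (-3.61, SE 0.14, 3.24e-19), the methionine adenosyltransferase subunit gene Mat2b (-2.61, SE 0.12, 1.46e-17) and Trim28 (-3.55, SE 0.17, 3.24e-17), the corepressor that ZFP57 recruits, fell. Beside the same shares of all probes, 4 of 5 genes of the imprint and maternal list were lower and 0 higher, and of the partners of maintenance 3 of 5 were lower and 2 higher.

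In TSA(-) against IVF, 4 of 38 were higher (8.49% of all probes) and 2 lower (10.3%), and in TSA(+) 4 were higher (7.83%) and 3 lower (11.1%), so the share of higher genes was near that of all probes and the share of lower genes under it. Xrcc1, which acts downstream of the glycosylases, was at 0.38 ± 0.21 in IVF, 2.02 ± 0.30 in TSA(-) and 2.32 ± 0.12 in TSA(+), differences of 1.65 (SE 0.14, adjusted p = 3.61e-10) and 1.94 (SE 0.15, 7.28e-11). Apobec1, a cytidine deaminase gene, differed by 2.16 and 2.51 (adjusted p = 1.12e-07 and 2.99e-08), Gadd45g by 1.22 and 1.16 (6.07e-05 and 1.73e-04) and Cdca7, a partner of the remodeller HELLS, by 0.99 and 0.93 (8.14e-06 and 5.13e-05). The uracil glycosylase gene Ung was lower, by -0.62 and -0.80 (adjusted p = 0.005 and 0.001). Neil3, a glycosylase gene for oxidised bases, was lower in TSA(-) (-1.38, SE 0.28, adjusted p = 4.31e-04) and was not called in TSA(+) (-0.89, SE 0.30, 0.027), and the 2 clone groups differed in it by 0.49 (SE 0.28, adjusted p = 0.404). Mat2b was called lower in TSA(+) (-0.60, SE 0.13, adjusted p = 5.45e-04) and was not called in TSA(-) (-0.38, SE 0.12, 0.017). The 2 clone groups differed in Mat2b by -0.23 (SE 0.12, adjusted p = 0.344). All of these called higher in TSA(-) were also above IVF in TSA(+), which was measured against the same IVF arrays. Between TSA(+) and TSA(-) 0 of 38 were called.

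Spi-C NT against TSA(-) had 3 of 38 higher (11.5% of all probes) and 7 lower (9.2%), and of all called probes 55.5% were higher, or 36.1% after centring on the median. Mat2b was lower by 0.60 on the log2 scale (difference -0.60, SE 0.09, adjusted p = 1.62e-05), as were the histone methyltransferase gene Setdb1 (-0.77, SE 0.17, 8.93e-04), Trim28 (-0.56, SE 0.13, 0.001) and Dppa3, a maternal factor (-0.34, SE 0.08, 0.002). The methyl-CpG-binding gene family member Mbd3 (0.75, SE 0.15, 4.32e-04) and Cdca7 (0.61, SE 0.13, 7.86e-04) were higher. The concentrations differed in 0 of 38. Cumulus against OC had 16 higher (23.4% of all probes) and 19 lower (44.4%), and TSA(-) against Cumulus 14 (30.5%) and 17 (24.5%), with Dppa3 at -12.13 (SE 0.25, adjusted p = 1.42e-26) and 9.78 (SE 0.25, 3.15e-24).

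**Figure D4:**
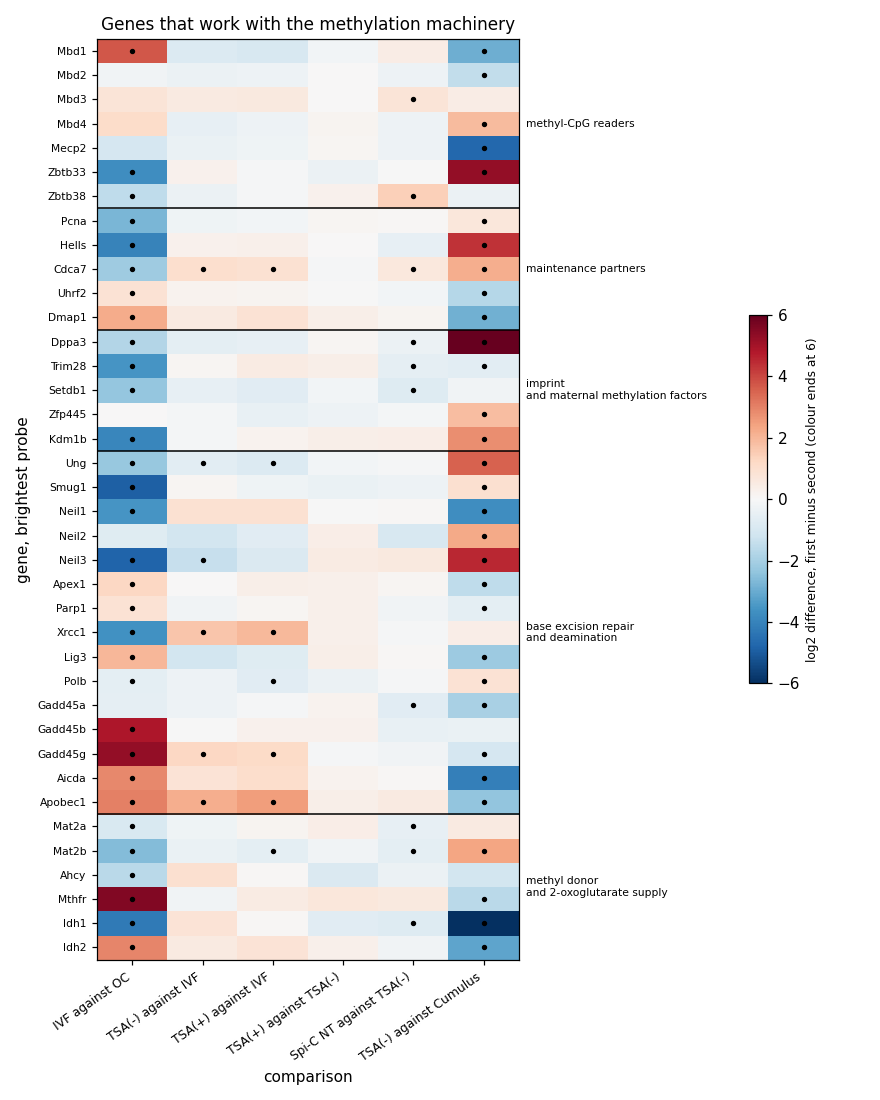
Log2 differences (colour, first group minus second, ending at 6) of the 38 listed genes with a probe (y axis) in 6 comparisons (x axis). Dots mark an adjusted p under 0.01. Most genes carry a dot in IVF against OC (31 of 38), and none does in TSA(+) against TSA(-).

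Over all 39 arrays, 13307 genes with a bright enough probe were ranked by the correlation of their level with each member. The 2 nearest were Trp53bp1 and Lysmd4 for Dnmt1 (Pearson r 0.982 each), Zar1 and Ahsa1 for Uhrf1 (0.991 each), Ago2 and Usp37 for Dnmt3a (0.97 each), Rrm2b and Rab35 for Dnmt3b (0.981 and 0.98), Gng3 and Myom2 for Dnmt3l (0.991 and 0.99), Atp6v1c2 and Cdc6 for Tet2 (0.974 and 0.944), Anxa2 and Igdcc4 for Tdg (0.926 and 0.92), and Oacyl and Nudt5 for Zfp57 (0.977 and 0.971). Among the members, Uhrf1 and Dnmt3b (0.93), Uhrf1 and Zfp57 (0.91) and Dnmt3l and Tet2 (0.91) were nearest, and Dnmt3l and Tdg farthest (-0.88). These r describe the 7 groups and not the arrays within them. Over the 20 IVF, TSA(-) and TSA(+) arrays alone, r turned to -0.33 for Uhrf1 and Dnmt3b and to -0.71 for Dnmt3l and Tet2, was 0.75 for Uhrf1 and Zfp57 and -0.63 for Dnmt3l and Tdg, and for Dnmt1 and Uhrf1 was 0.14 in place of 0.90. Group means were not removed from these 20 arrays, so their r also carry the differences between IVF and the clones.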

How the data were processed

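Gene expression in 39 samples had been measured by the authors on Agilent Whole Mouse Genome arrays (4 × 44K) with 1 colour, after amplification of RNA in 2 rounds and Cy3 labelling. The deposited scanner files give the processed intensity of each spot from Feature Extraction (9.5.3.1 in the submitters' notes, 10.5.1.1 in the headers of the Cumulus and Spi-C files), background-subtracted and not normalized between arrays. The deposited table of log2 values, relative to the 75th percentile and to the median of each probe, and the uncorrected spot and background intensity of the deposited files were used as alternatives.

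Control spots and 5238 outlier spots were left out, spots of 1 probe were averaged, and log2 processed intensity was taken minus the 75th percentile of each array. The filter kept probes that reached an intensity of 10 on any IVF or cloned-embryo array (39517 of 41174). They were tested with limma 3.58.1 (lmFit, eBayes) in R 4.3.3 and statmod 1.5.0, and called at a Benjamini-Hochberg adjusted p under 0.01. One fit held the OC, Cumulus, IVF, TSA(-) and TSA(+) arrays, another the IVF, TSA(-), TSA(+) and both Spi-C groups, with Spi-C NT as the mean of both. The authors' own test was a one-way analysis with Tukey's HSD, run here as an alternative. No 2 arrays were identical and no member spot was saturated. The members and the gene lists were chosen with earlier results of these data known. Named were all members, at most 6 called genes of the lists per comparison by adjusted p, others in counts, and the 2 genes most like each member. The fitting steps were checked on simulated arrays in which 200 probes had been changed. Precision is limited by how many arrays a group has and, for dim probes, by the background. Promoter regions came from RefSeq (GRCm38.p6). Figures were drawn with matplotlib 3.10.9.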

Additional observations from a re-analysis of the deposited data

Results flagged for a closer look

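Among 91 sets of levels, each the arrays of 1 group with 1 member probe, 5 held an array whose gap to its nearest neighbour was large for the range of its group, by Dixon's criterion at 95%, which chance meets in about 1 of 20 sets. Dnmt1 in OC replicate 3 was at 4.04, where the other OC arrays read 4.51 to 4.83. Dnmt3l in IVF replicate 5 was at 4.68, with the others at 4.47 to 4.53. Tdg probe 1 was at -2.45 in OC replicate 6 (others -1.13 to -0.49) and at -1.31 in TSA(+) replicate 2 (others -0.67 to -0.30). Uhrf1 probe 2 was at -1.56 in Cumulus replicate 3 (others -0.65 to -0.48). Of these arrays, leaving out OC replicate 3 or IVF replicate 5 ended the call of Dnmt3l between IVF and OC, and leaving out IVF replicate 5 also ended its call between TSA(-) and IVF. Leaving out IVF replicate 5 (-1.16, adjusted p = 0.013) or TSA(+) replicate 2 (-1.13, 0.014) ended the call of Zfp57 between TSA(+) and IVF.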

How the results depend on the processing

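The following totals pool all comparisons and leave out the other probe filters, Tukey's test and a threshold of 0.05. Over the remaining alternatives that keep all arrays, 363 of 399 values of called member probes kept their direction and call. Another 33 kept the direction only and 3 turned, and with 1 array left out 570 of 610 kept both and 40 the direction only. Of values not called, 457 of 491 and 652 of 690 stayed as they were. The causes were not tested. Slide and scan day as fixed blocks could not be fitted for comparisons with Cumulus or between Spi-C NT and TSA(-), where slide was fitted as a random block only. Dim probes, such as probe 2 of Tet2 and of Tdg, and groups of 4 arrays limit what can be seen.

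The number of members called in TSA(-) against IVF was 1 with slide and 2 with scan day as a block, in place of 4. In TSA(+) against IVF it was 2 after centring on the median and 2 with slide as a block, and 2 to 4 without 1 array, in place of 4. Without 1 array the other counts were 5 to 7 for IVF against OC, 3 to 4 for TSA(-) against IVF, 7 to 8 for Cumulus against OC and for TSA(-) against Cumulus, 2 to 3 for Spi-C NT against TSA(-) and 0 to 0 for both comparisons without a call. The shares of all probes that go with these other counts are not given here.

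Samples with the same replicate number did not deviate together (r from -0.087 to 0.151), so the numbers do not pair them. With the replicate number as a block, the members called follow, with all probes called higher and lower, of 39517, in brackets. They were 6 for IVF against OC (9013 and 16535) and 3 for TSA(-) against IVF (2916 and 3507). TSA(+) gave 5 against IVF (2890 and 4063) and 0 against TSA(-) (16 and 62). Cumulus against OC gave 8 (9067 and 17226) and TSA(-) against Cumulus 7 (11706 and 9108). Spi-C NT against TSA(-) gave 2 (2868 and 2255), and the concentrations 0 (2 and 0).

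Directions turned as follows. Centring on the median gave -0.16 for Dnmt3l in IVF against OC, 0.18 for Dnmt3a probe 3 in TSA(+) against IVF, 0.06, 0.07, 0.05 and 0.04 for Dnmt3a probe 1, Dnmt3l and Uhrf1 probes 1 and 2 in TSA(+) against TSA(-), -0.19 and -0.63 for Dnmt1 and Dnmt3a probe 3 in TSA(-) against Cumulus, -0.01 for Dnmt3a probe 1 in Spi-C NT against TSA(-) and -0.02 for Dnmt3l between concentrations. Quantile normalization gave 0.01 for Dnmt1 and 0.11 for Uhrf1 probe 1 in Spi-C NT against TSA(-), and normexp 0.06, 0.13 and 0.00 for Dnmt1 and Uhrf1 probes 1 and 2. Slide as a block gave -0.07 for Dnmt3a probe 3 and -0.01 for Tet2 probe 2 in TSA(-) against IVF, and 0.12 for Tet2 probe 1 in TSA(+) against TSA(-), scan day as a block 0.01 for Dnmt1 in TSA(-) against IVF, and the replicate block 0.02 for Dnmt1 in Spi-C NT against TSA(-). The mean over probes gave 0.57 for Tdg in IVF against OC, 0.05 for Tet2 in TSA(+) against TSA(-), -1.83 for Dnmt3a in Cumulus against OC and 0.17 for Dnmt3a between concentrations.

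With 1 array left out, values that crossed 0 were Dnmt1 in TSA(-) against IVF (-0.11 to 0.01), Dnmt3a probes 2 (-0.07 to 0.16) and 3 (-0.20 to 0.10) in TSA(+) against IVF, Dnmt1 (-0.06 to 0.01), Tet2 probe 2 (-0.30 to 0.17) and Uhrf1 probe 1 (-0.07 to 0.01) in Spi-C NT against TSA(-), and, between concentrations, Dnmt3a probe 3 (-0.18 to 0.56), Dnmt3b (-0.21 to 0.01), Dnmt3l (-0.01 to 0.12), Tdg probe 2 (-0.30 to 0.47) and Tet2 probe 2 (-0.34 to 0.45). None of these was called.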
